A study of Mus musculus with 14 samples.

Results

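Immediate early genes are the genes that cells switch on first after a stimulus, and the 10 members examined here were Fos, Fosb, Jun, Junb, Jund, Egr1, Egr3, Ier2, Nr4a1 and Atf3, of 26161 genes listed in the count tables. They were chosen by name, because the dissociation and sorting that every library went through can induce them. The shBCOR cells were retinal cells of CD1 mice (mouse line WT) that had been electroporated in vivo at postnatal day 0 with pSilencer-shBcor, a plasmid that makes a short hairpin RNA against Bcor. The control cells had received the empty vector pSilencer-CAG-Venus, both plasmids being given at 1 µg/µl. At postnatal day 21 the retinas of both groups were taken apart with Accutase over 30 minutes, propidium iodide staining removed 10 to 15% of the cells as dead, and GFP-positive cells were sorted. Several sorts were combined into each replicate of 30000 to 70000 cells, with 2 shBCOR and 2 control libraries, and the labels give neither the number of eyes nor the number of litters in a pool. P-values therefore measure the spread between these pools. No undissociated or unsorted retina was among the samples analysed here, so levels set by dissociation and levels of the intact retina cannot be told apart. A lower level in a pool can also not be told apart from fewer cells of the type that expresses the gene.

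Immediate early genes need no new protein for their induction. Calcium, growth factors, light and stress act through kinases on factors that already sit at these promoters, mainly SRF with its ETS partners at CArG boxes and CREB at cyclic AMP response elements, and the RNA rises within minutes and decays fast. Their products are mostly transcription factors. FOS, FOSB, JUN, JUNB, JUND and ATF3 are basic leucine zipper proteins that act as parts of AP-1 dimers. EGR1 and EGR3 are zinc finger factors, NR4A1 is an orphan nuclear receptor and IER2 is a small nuclear protein. In the retina Fos and Egr1 are known for their response to light and to injury, and tissue dissociation is a known inducer of the whole class in isolated cells.

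The libraries held 3173927 and 4093380 counts for shBCOR and 5107174 and 4973402 for the controls, so that 1 count was worth 0.315 and 0.244 CPM (counts scaled by the library total) in shBCOR and 0.196 and 0.201 CPM in the controls. Rod marker genes summed to 237109 and 209362 CPM in shBCOR and 204917 and 207034 CPM in the controls, so the label of retinal cells was met by rod RNA in every library. The targeted gene Bcor had counts in 1 of its 6 records, 0 and 13 in shBCOR and 20 and 8 in the controls, with a log2 fold change of -0.63 ± 2.44 (SE; adjusted p = 0.996, edgeR). With so few counts the tables do not show whether Bcor was lowered. The groups are named by their labels throughout.

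The promoters of Jun, Fos, Junb and Nr4a1 are shown first, because they are the members with the most counts among those with a sequence in the RefSeq promoter table that was used here. Each window runs from 250 bases before the start of transcription to 50 after it, 5′ to 3′ on the gene's own strand, on GRCm38.p6. They lie at chr4:95052173-95052472 (minus strand), chr12:85473640-85473939 (plus strand), chr8:84978699-84978998 (minus strand) and chr15:101266596-101266895 (plus strand). Capitals mark the core of the cyclic AMP response element (TGACG, read on either strand as TGACG or CGTCA) and the AP-1 type octamer (TGACNTCA, which reads alike on both strands).
Jun: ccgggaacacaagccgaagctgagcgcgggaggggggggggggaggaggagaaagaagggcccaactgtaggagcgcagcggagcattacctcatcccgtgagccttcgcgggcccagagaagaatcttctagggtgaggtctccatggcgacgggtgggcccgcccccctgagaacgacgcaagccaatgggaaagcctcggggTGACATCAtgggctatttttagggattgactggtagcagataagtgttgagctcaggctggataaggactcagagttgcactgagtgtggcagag
Fos: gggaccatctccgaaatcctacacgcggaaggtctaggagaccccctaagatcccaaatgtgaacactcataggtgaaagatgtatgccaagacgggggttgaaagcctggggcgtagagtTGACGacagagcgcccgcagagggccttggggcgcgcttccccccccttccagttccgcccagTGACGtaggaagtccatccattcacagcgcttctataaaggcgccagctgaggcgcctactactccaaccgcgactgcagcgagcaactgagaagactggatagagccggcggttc
Junb: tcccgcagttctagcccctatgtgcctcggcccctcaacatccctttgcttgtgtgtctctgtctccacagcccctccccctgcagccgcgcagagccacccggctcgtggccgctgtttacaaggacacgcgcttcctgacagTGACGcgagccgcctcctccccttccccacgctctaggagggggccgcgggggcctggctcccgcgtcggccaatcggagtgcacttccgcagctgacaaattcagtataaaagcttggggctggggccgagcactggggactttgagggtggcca
Nr4a1: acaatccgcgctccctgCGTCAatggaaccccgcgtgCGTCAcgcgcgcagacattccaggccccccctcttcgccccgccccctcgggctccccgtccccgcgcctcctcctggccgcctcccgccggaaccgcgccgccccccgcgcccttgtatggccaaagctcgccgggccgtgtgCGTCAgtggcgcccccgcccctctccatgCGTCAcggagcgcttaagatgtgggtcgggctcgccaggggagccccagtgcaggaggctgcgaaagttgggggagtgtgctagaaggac
The Jun window held 1 octamer, at positions -45 to -38, and no TGACG. The Fos window held TGACG at -129 to -125 and at -66 to -62, with a TATAA at -33 to -29, and the Junb window held 1 TGACG at -106 to -102. The Nr4a1 window held TGACG 4 times, each on the minus strand, at -233 to -229, -213 to -209, -69 to -65 and -40 to -36. Of 32851 promoter windows of the same length, 20.8% held TGACG and 8.83% held TGACNTCA, and 24.9% held TATAA. The Junb window also held TATAA, at 1 to 5. The GC box GGGCGG stood on the minus strand once in the Jun and Fos windows and 3 times in that of Nr4a1, against 35.7% of all windows with at least 1 on either strand, and the AP-1 heptamer TGANTCA was in none of the 4, against 7.81% of all windows. The motifs can overlap where TGACNTCA has G in place of N. The strict CArG box CCWWWWWWGG, with W for A or T, was in none of these 4 windows, against 1.63% of all windows. Looser matches to the CArG box were not searched. These matches describe letters and not bound sites, and sequence more than 250 bases before the start was not searched.

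Of the 10 members, 7 could be measured and 3 could not. Fos, Jun, Junb, Egr1, Ier2, Nr4a1 and Atf3 have 1 RefSeq record each in the tables, every one had counts in all 4 libraries, and all 7 passed the filter on low counts. Fosb, Jund and Egr3 have 2, 2 and 3 records, and these 7 records held 0 counts in every library. A count of 0 allows up to 0.945 and 0.733 CPM in shBCOR and 0.587 and 0.603 CPM in the controls, for counting error alone. Among genes with several records 36.2% had any count, against 46.4% of genes with 1 record, so the 0 counts of Fosb, Jund and Egr3 are not read here as a lack of expression. Levels are given for each gene across libraries and not compared between genes, since counts also follow transcript length.

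None of the 7 measured members passed the test of shBCOR against control. The log2 fold change was below 0 for 6 members and above 0 for 1, where 51.2% of all 7921 records tested were below 0. The members' median was -0.50, against -0.02 over all records tested. With edgeR's quasi-likelihood test, at an adjusted p under 0.05 over all records, 0 members were called higher in shBCOR and 0 lower. The number of members with an unadjusted p under 0.05 was also 0. DESeq2 likewise called 0, with 0 at an unadjusted p under 0.05. Over all records edgeR called 0.0884% (0.0379% higher and 0.0505% lower in shBCOR) and DESeq2 4.79%, and 8.88% had an unadjusted p under 0.05 in edgeR. With 2 libraries a group no exact permutation test of a single gene can go below a two-sided p of 0.333.

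**Figure D1:**
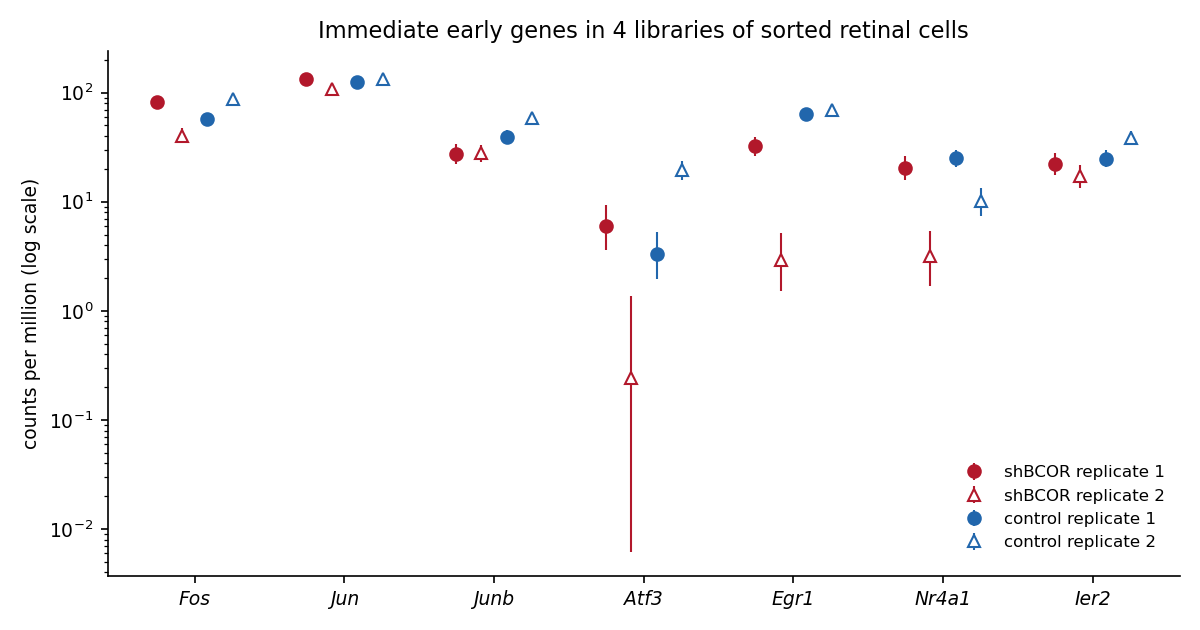
CPM (log axis) of the 7 measured immediate early genes in each library, shBCOR in red left of control in blue, filled circles for replicate 1 and open triangles for replicate 2, with exact 95% Poisson intervals. Egr1, Nr4a1 and Atf3 spread most, down to 2.93, 3.18 and 0.244 CPM in shBCOR replicate 2, while Jun stays between 108 and 134 CPM.

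Among the AP-1 subunits, Jun, the common partner of the FOS proteins, was the steadiest member. Jun had 133 and 108 CPM in shBCOR, against 125 and 134 CPM in the controls. The groups overlapped. The fitted log2 fold change was 0.07 ± 0.22 (SE; adjusted p = 0.994, edgeR), its 95% interval reaching from -0.44 to 0.57. The sign of this small value turned with scaling to total counts alone (-0.11) and without shBCOR replicate 1 (-0.12). Total-count scaling shifted the median of all records by -0.17 on the log2 scale.

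Fos, the classic partner of JUN, differed more between the libraries of a group than between the groups. Fos had 81.6 and 40.3 CPM in shBCOR, against 57.4 and 87.5 CPM in the controls, so that each group held a high and a low library. Its log2 fold change was -0.07 ± 0.41 (SE; adjusted p = 0.998, edgeR), with a 95% interval from -1.03 to 0.88. It was 0.047 after thinning to equal depth, 0.36 without shBCOR replicate 2 and 0.26 without control replicate 2.

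Junb, an AP-1 subunit that often damps JUN, lay lower in both shBCOR libraries than in both controls. Junb had 27.4 and 27.8 CPM in shBCOR, against 39.2 and 58.5 CPM in the controls. The log2 fold change was -0.65 ± 0.38 (SE; adjusted p = 0.658, edgeR), 1.57-fold lower, with a 95% interval from -1.53 to 0.23. The difference missed the threshold, and the shBCOR libraries were closer to each other than the controls were.

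Atf3, a stress-induced subunit that forms dimers with JUN, had the fewest counts of the measured members. Atf3 had 19 and 1 counts in shBCOR, which is 5.99 and 0.244 CPM, against 17 and 97 counts or 3.33 and 19.5 CPM in the controls. The groups overlapped, and 1 library in each held most of the group's counts. The log2 fold change of -1.69 ± 1.56 (SE; adjusted p = 0.859, edgeR) has a 95% interval from -5.34 to 1.96 and gives no direction. Without shBCOR replicate 1 it was -5.26 (adjusted p = 0.0235, edgeR), a call that rests on that 1 count, and without control replicate 2 it was 0.089.

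Egr1, the zinc finger factor induced by SRF and its partners, had the largest fitted difference between the groups and the lowest p of the members. Egr1 had 32.1 and 2.93 CPM in shBCOR, from 102 and 12 counts, against 63.4 and 69.8 CPM in the controls, from 324 and 347 counts. Both shBCOR libraries lay below both controls, 1 of them 1.97-fold and 2.17-fold below the single controls, the other 21.6-fold and 23.8-fold. The controls were close to each other and the shBCOR libraries were not. The log2 fold change of -1.76 ± 0.86 (SE; 95% interval -3.77 to 0.25), 3.38-fold lower, missed the threshold with edgeR (adjusted p = 0.598). The value rests on shBCOR replicate 2: without it the log2 fold change was -0.86 (adjusted p = 0.269, edgeR), and without shBCOR replicate 1 it was -4.35 (adjusted p = 2.4e-10, edgeR). In that fit the lone shBCOR library is assumed to vary like the controls. Without a filter on low counts Egr1 was also called, at -1.76 (adjusted p = 0.0251, edgeR), while DESeq2 gave -1.73 (adjusted p = 0.657).

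Nr4a1, the nuclear receptor also known as Nur77, split both groups. It had 20.5 and 3.18 CPM in shBCOR, against 25.1 and 10.1 CPM in the controls. The groups overlapped, and the log2 fold change was -0.39 ± 0.93 (SE; adjusted p = 0.989, edgeR), with a 95% interval from -2.58 to 1.79. It was 0.41 without shBCOR replicate 2 and likewise 0.41 without control replicate 1.

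Ier2, the small nuclear protein gene, had 22.4 and 17.1 CPM in shBCOR, against 24.9 and 38.2 CPM in the controls. Both shBCOR libraries were below both controls in CPM. After TMM scaling, the scaling used in the fit, shBCOR replicate 1 with 24.2 lay just above control replicate 1 with 23.5. The log2 fold change was -0.50 ± 0.46 (SE; adjusted p = 0.851, edgeR), with a 95% interval from -1.57 to 0.56.

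In CPM, 3 members (Egr1, Junb and Ier2) had both shBCOR libraries below both controls and 0 had them above, where 31.1% and 11.1% of all records tested did. After TMM scaling this held for 2 members (Egr1 and Junb), against 23.2% of all records, and 5 members overlapped.

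**Figure D2:**
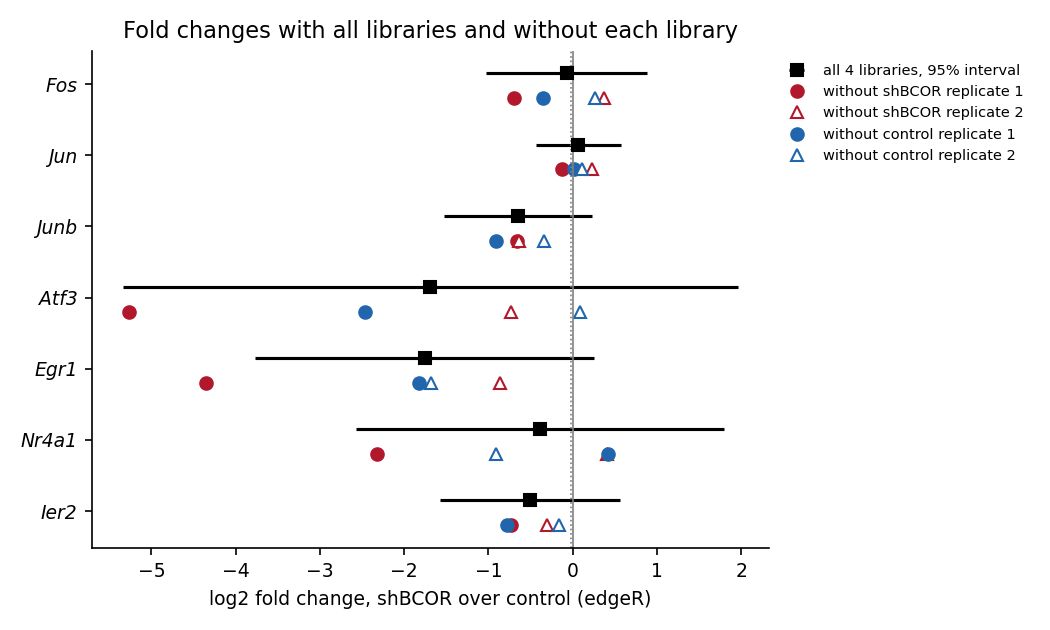
Log2 fold change of shBCOR over control (edgeR) for each measured member, as a black square with its 95% interval from all 4 libraries, and below it the value without each library in turn (red for a shBCOR library left out, blue for a control). The solid line is 0 and the dotted line the median of all records, -0.02; Egr1 moves between -4.35 and -0.86 and Atf3 between -5.26 and 0.089, while Jun moves between -0.12 and 0.23.

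The members differed between the pools of a group, and shBCOR replicate 2 was the low library. After TMM scaling it held the lowest value of the 4 libraries for all 7 members, where it was lowest for 26.2% of all records tested. In unscaled CPM it was lowest for 6, the exception being Junb, whose shBCOR libraries were nearly equal. After TMM scaling the highest value lay in shBCOR replicate 1 for 2 members, in control replicate 1 for 1 and in control replicate 2 for 4, where these libraries were highest for 26.3, 23.5 and 23.3% of all records tested. In unscaled CPM control replicate 2 was highest for 6 members, control replicate 1 for 1 and shBCOR replicate 1 for 0. The share of all records with each library lowest or highest was not counted in unscaled CPM. On that scale 31.1% of all records tested had both shBCOR libraries below both controls, and 11.1% above. No member had its highest value in shBCOR replicate 2 on either scale.

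Between the shBCOR libraries, replicate 1 exceeded replicate 2 by 10.96-fold for Egr1 (exact 95% interval for counting error 6.01 to 21.9), by 6.45-fold for Nr4a1 (3.52 to 12.8) and by 2.02-fold for Fos (1.66 to 2.48). For Atf3 the ratio was 24.5, with an interval from 3.90 to 1018, since replicate 2 held 1 count. Jun, Ier2 and Junb had ratios of 1.23, 1.31 and 0.984. Among the 6116 records with at least 100 counts over the 4 libraries, 4.14% had a gap between the shBCOR libraries as large as that of Egr1, 5.92% as large as that of Nr4a1, and 23.4% as large as that of Fos.

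Between the controls the gaps ran the other way for most members, with replicate 1 below replicate 2. Control replicate 1 held 0.656 of the level of replicate 2 for Fos, 0.669 for Junb and 0.651 for Ier2. Gaps as large as these were reached by 27.7, 29.4 and 27.0% of the 6116 records. For Atf3 it held 0.171, a gap that 1.47% of the records reached. Egr1 and Jun were close between the controls, with ratios of 0.909 and 0.936, and Nr4a1 stood against the rest with 2.49 (1.78 to 3.53). For Fos, Nr4a1 and Atf3 the counting intervals of the ratio left out 1 within both groups. For Egr1 (0.779 to 1.06 within control) and Jun they did so within shBCOR alone, and for Junb and Ier2 within control alone. How many of all records have such intervals was not counted.

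**Figure D3:**
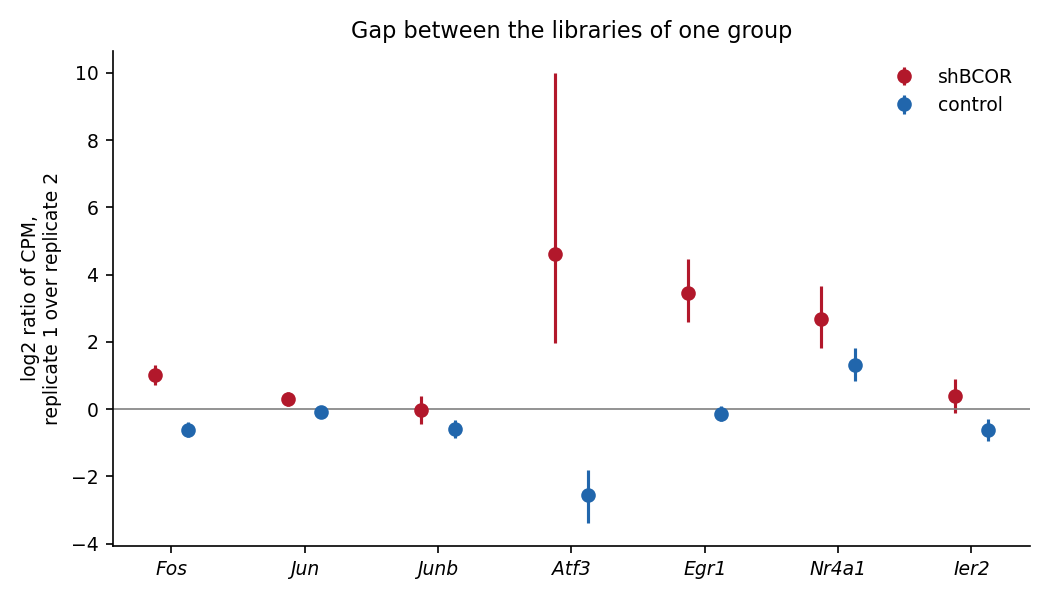
Log2 ratio of CPM of replicate 1 over replicate 2 within shBCOR (red) and within control (blue) for each measured member, with exact 95% intervals for counting error. The ratio is 10.96 for Egr1 within shBCOR, against 0.909 within control, and the direction differs between the groups for 5 members, all but Junb and Nr4a1.

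Summed over the members, shBCOR replicate 2 again stood apart. The 7 measured genes summed to 323 and 199 CPM in shBCOR, with exact 95% Poisson intervals of 303 to 343 and 186 to 214, against 339 and 417 CPM in the controls (323 to 355 and 400 to 436). The sum of shBCOR replicate 1 has an interval that overlaps that of control replicate 1. After TMM scaling the sums were 350 and 207 in shBCOR, against 319 and 393 in the controls, and shBCOR replicate 1 then lay between the controls. Without Jun the sums were 190.0 and 91.6 CPM in shBCOR, against 213 and 284 CPM in the controls.

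Each shBCOR library was also set against each control. For shBCOR replicate 2 all 7 members were lower than in either control, with medians of -0.40 and -1.02 on the log2 scale after TMM scaling. For shBCOR replicate 1, after the same scaling, 3 of 7 were lower than in control replicate 1 (median 0.05) and 4 of 7 lower than in control replicate 2 (median -0.57). In unscaled CPM these counts were 4 and 6 of 7, and those for shBCOR replicate 2 stayed at 7. The median of all records tested, after TMM scaling, lay between -0.05 and -0.03 in the 4 pairs. The share of all records that were lower in each pair was not counted. These 4 comparisons share libraries and are given side by side.

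The wider class of immediate early genes had a median closer to that of all records. Of 41 other genes of the class, 30 had counts and 25 records could be tested, of which 0 were called higher and 0 lower, and the median log2 fold change was -0.16. They summed to 944 and 955 CPM in shBCOR, against 1124 and 1033 CPM in the controls, so the low sum of shBCOR replicate 2 seen for the members was not seen here. With each library left out in turn, the median log2 fold change of these records stayed between -0.32 and -0.06. Plk2, a kinase of synaptic scaling, had 22.7 and 17.8 CPM in shBCOR, against 68.1 and 46.2 CPM in the controls, with a log2 fold change of -1.33 ± 0.39 (SE; adjusted p = 0.331, edgeR). Without shBCOR replicate 1 its value was -1.54, and without shBCOR replicate 2 it was -1.14. DESeq2, which called 4.79% of all records, called Plk2 at -1.32 (adjusted p = 0.0182). Trib1, a pseudokinase, had 126 and 94.5 CPM in shBCOR, against 83.2 and 72.4 CPM in the controls, with 0.68 ± 0.26 (SE; adjusted p = 0.480, edgeR). Its value was 0.42 without shBCOR replicate 1 and 0.89 without shBCOR replicate 2. The antiproliferative genes Btg2 and Btg1 had log2 fold changes of 0.37 and -0.16, the RNA decay factor Zfp36l2 had 0.15, the survival gene Mcl1 had -0.02, and Ier3 and the phosphatase Dusp5 had -0.08 and -0.04. Egr2, Egr4, Nr4a2, Nr4a3, Arc, Fosl1 and Myc were among the 11 genes listed at 0 in all libraries.

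The genes that act beside or above the members did not pass either. Of 15 other AP-1 subunits and related zipper genes, 8 had counts and 5 were tested, with 0 called in either direction and a median of -0.22. Of 25 upstream factors, 14 had counts and 10 records were tested, with 0 called and a median of -0.50. That median rests on the shBCOR libraries: it was 0.042 without replicate 1 and -0.95 without replicate 2. Srf, the factor that binds the CArG box, had -0.47 ± 0.39 (SE; adjusted p = 0.826, edgeR), and Crtc1, a coactivator of CREB, had -0.52 ± 0.37. The acetyltransferases Crebbp and Ep300, which CREB recruits, had -0.07 and 0.30. The summed level of this list was 646 and 900 CPM in shBCOR, against 915 and 823 CPM in the controls, with shBCOR replicate 1 at the low end.

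Heat shock genes, the chaperone genes induced by heat and other protein damage, summed to 5226 and 5524 CPM in shBCOR, against 5282 and 5333 CPM in the controls, most of it from Hsp90aa1. After TMM scaling the sums were 5661 and 5745 in shBCOR, against 4983 and 5018 in the controls. Of 9 records tested 0 were called in edgeR. An unadjusted p under 0.05 in edgeR was reached by 3 of them, where 8.88% of all records tested reached it. The median log2 fold change of the list was 0.07. The sign of this median was not stable: it was 0.38 without shBCOR replicate 1, -0.62 without shBCOR replicate 2 and -0.21 after thinning. Hsp90aa1, the inducible cytosolic HSP90, had 4245 and 4389 CPM in shBCOR, against 3696 and 3729 CPM in the controls, with 0.39 ± 0.08 (SE; adjusted p = 0.155, edgeR). Hsp90ab1, the constitutive form, had 788 and 870.2 CPM in shBCOR, against 1366 and 1405 CPM in the controls, with -0.57 ± 0.10 (SE; adjusted p = 0.112, edgeR). Hspa1b, an inducible HSP70, had 0.73 ± 0.21 (SE; adjusted p = 0.295, edgeR), while its near-identical neighbour Hspa1a had 0.07 and the cochaperone Dnajb1 -0.60. Reads of Hspa1a and Hspa1b can be split between them in counting, so their values are uncertain. DESeq2, which called 4.79% of all records, called 3 of the list, Hsp90aa1, Hsp90ab1 and Hspa1b (adjusted p = 5.9e-06, 5.4e-07 and 0.0133). With shBCOR replicate 1 or 2 left out edgeR called both HSP90 genes in the same directions, in fits that called 526 and 534 of all records, and with a control left out it called neither (adjusted p = 0.753 and 0.802 for Hsp90ab1, and 1.00 both times for Hsp90aa1). Without a low-count filter edgeR also called both, in a fit that called 197 of all records. With total counts alone it called Hsp90ab1 (adjusted p = 0.0496, edgeR), in a fit that called 26 of all records.

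**Figure D4:**
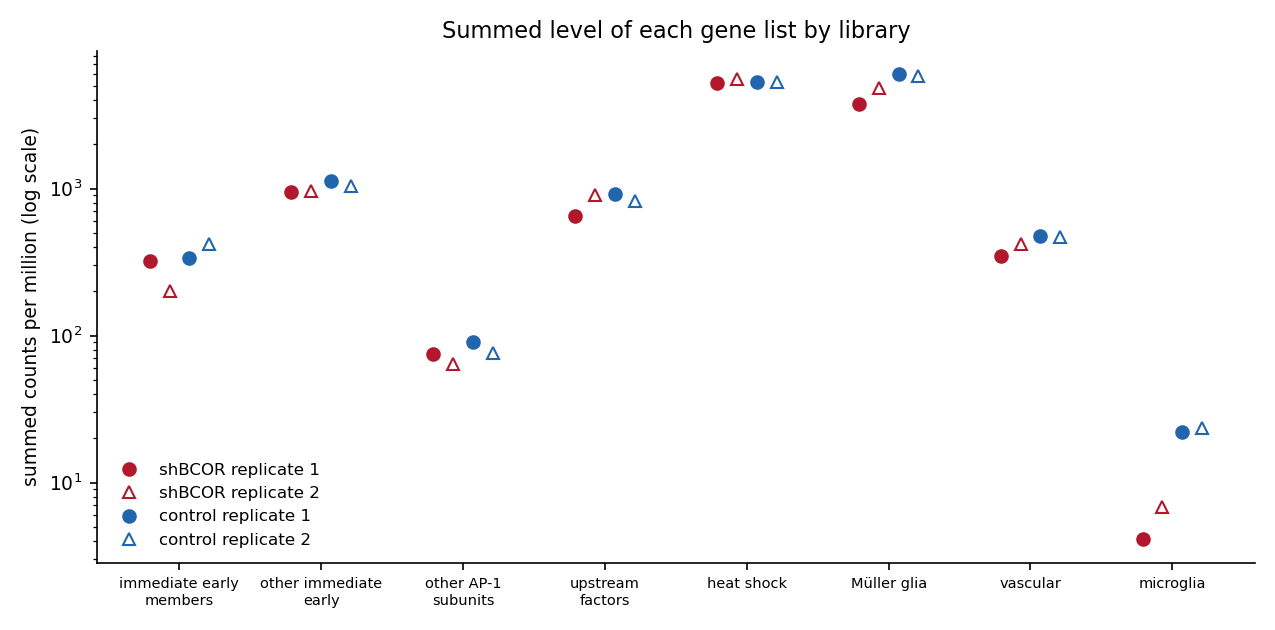
Summed CPM (log axis) of each gene list in each library, shBCOR (red) left of control (blue), filled circles for replicate 1 and open triangles for replicate 2. The immediate early members drop to 199 CPM in shBCOR replicate 2, and the heat shock genes lie between 5226 and 5524 CPM. The microglia markers lie at 4.10 and 6.84 CPM in shBCOR, against 22.1 and 23.5 CPM in the controls. Of these, Cx3cr1 gave 6.11 CPM in shBCOR replicate 2.

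Markers of the other cell types that a sort could hold are given beside the members. Müller glia markers, 13 of 16 with counts, summed to 3748 and 4824 CPM in shBCOR, against 6013 and 5794 CPM in the controls. Glul alone had 2199 and 2945 CPM in shBCOR, against 4069 and 3965 CPM in the controls. Slc1a3 overlapped between the groups, and of 11 Müller records tested 6 had a log2 fold change below 0 and 5 above. Microglia markers had counts for 7 of 12, with P2ry12, Aif1, Itgam, Ptprc and Tyrobp at 0. They summed to 4.10 and 6.84 CPM in shBCOR, against 22.1 and 23.5 CPM in the controls. Cx3cr1 had 0 and 6.11 CPM in shBCOR, most of the sum of shBCOR replicate 2, against 4.11 and 4.83 CPM in the controls. Csf1r had 0.63 and 0 CPM in shBCOR, against 5.87 and 9.65 CPM in the controls. Of 3 microglia records tested, 0 were called, and 2 lay below both controls after TMM scaling. Vascular and pericyte markers had counts for 3 of 12, with Pecam1, Cldn5, Cdh5, Tek, Pdgfrb and Acta2 among the 9 at 0, and summed to 348 and 416 CPM in shBCOR, against 475 and 467 CPM in the controls, most of it from Kdr. Bipolar cell markers summed to 964 and 1393 CPM in shBCOR, against 1916 and 1815 CPM in the controls, and amacrine markers to 32.1 and 35.4 CPM, against 121 and 143 CPM. Ganglion and horizontal cell markers summed to 670 and 374 CPM in shBCOR, against 2012 and 1962 CPM in the controls. Of their 10 records tested, 9 had a log2 fold change below 0, where 51.2% of all records tested did. After TMM scaling 8 lay below both controls, against 23.2% of all records. In edgeR 1 (Nefm) was called lower, where 0.0505% of all records were. Cone markers summed to 1055 and 737 CPM in shBCOR, against 1274 and 1172 CPM in the controls. Astrocyte and oligodendrocyte markers summed to 22.1 and 29.8 CPM in shBCOR, against 48.0 and 43.6 CPM in the controls. Retinal pigment epithelium markers gave 6.30 and 23.2 CPM in shBCOR, against 14.1 and 4.42 CPM in the controls, lens markers at most 0.783 CPM in any library and red blood cell markers 0. In CPM, the Müller glia, microglia, vascular, bipolar, amacrine, ganglion, astrocyte and cone sums were lower in both shBCOR libraries than in both controls. The rod sum was higher. After TMM scaling the cone sums were 1143 and 767 in shBCOR, against 1201 and 1103 in the controls, so the cone sums then overlapped. The part of these cell types in the members' values was not tested. Within shBCOR, the rod, ganglion and cone sums were lower in replicate 2, as was the members' sum, while the Müller glia, microglia, vascular, bipolar, amacrine and astrocyte sums were lower in replicate 1.

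Records outside the class that followed the members most closely over the 4 libraries were Wdr46, Mrpl46, Timmdc1, Lrrc46 and Dtd1. Likeness was the root-mean-square distance, over 4 libraries, between a record's mean-centred log2 CPM and the members' mean profile, which was 0.34 and -1.24 in shBCOR, against 0.23 and 0.67 in the controls. The distances ran from 0.0894 to 0.131 on the log2 scale among 4088 records with a mean of at least 20 CPM. Wdr46, the nearest, had 26.5 and 10.5 CPM in shBCOR, against 32.3 and 42.8 CPM in the controls. None of the 5 records was itself an immediate early gene, and 3 of them were still among the nearest 5 with a smaller prior count, so with 4 libraries this likeness is a loose description.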

How the data were processed

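RNA was sequenced from 4 pools of sorted retinal cells (2 shBCOR, 2 control). The deposited values are whole-number HTSeq counts per RefSeq record, as the labels describe them. Trimmomatic, TopHat and DESeq2 and the builds mm10 and mm9 also appear, without roles, in the submitters' processing notes. Libraries were made with a stranded kit after ribosomal RNA removal, from 3.0 to 5.1 ng of RNA with 15 PCR cycles, per the labels' protocols. The strand setting and the treatment of reads shared by several records are not given in the sources used here. PCR reads without molecular identifiers are not independent, so intervals and limits for 0 counts (3 counts) cover counting error only. The table of shBCOR replicate 2 carries another number than its title, and the title was followed. The 10 CUT&RUN peak lists were not used.

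Of 45895 records, 45749 (99.7%) matched a symbol in a RefSeq gene table of GRCm38.p6. The test was that of edgeR 4.0.16 under R 4.3.3 (TMM, filterByExpr by group, robust quasi-likelihood F test, shBCOR over control), with Benjamini-Hochberg adjustment over 7921 records. The SE is the log2 fold change divided by the root of F. DESeq2 1.42.0 was an alternative, as were RLE and total-count scaling, no filter, 1 CPM in 2 libraries, thinning to 3173927 counts, summing records per gene, a replicate block and leaving out each library. Members and lists were chosen with earlier results of these data known. Named were all members, the 5 nearest records and, of the other lists, each called record and at most 8 of those with the most counts. Promoter sequences are from RefSeq, GRCm38.p6; 7 of 10 members matched. Egr1, Egr3 and Ier2 had no entry.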

Additional observations from a re-analysis of the deposited data

How the results depend on the processing

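The members' median stayed below 0 under all 12 alternatives, from -0.78 to -0.17, as did the values of Egr1, Junb and Ier2. Of the 56 member values under the 8 alternatives that kept all libraries, 53 held direction and side of the threshold; Fos turned to 0.047 after thinning and Jun to -0.11 with total counts alone, and without a low-count filter 1 member was called, Egr1. Leaving out a library held 20 of 28 member values and gave 0 to 2 called members (Egr1 and Atf3 without shBCOR replicate 1) and log2 fold changes from -0.70 to 0.36 for Fos, -0.12 to 0.23 for Jun, -2.32 to 0.41 for Nr4a1, -5.26 to 0.089 for Atf3, -4.35 to -0.86 for Egr1, -0.92 to -0.34 for Junb, -0.78 to -0.17 for Ier2, -0.34 to 0.15 for Crebbp, -1.03 to 0.0067 for Dnajb1, -0.22 to 0.11 for Dusp5, -0.62 to 0.52 for Hspa1a, -0.69 to 0.35 for Ier3, -0.14 to 0.10 for Mcl1 and -0.18 to 0.40 for Zfp36l2. Hspa1a was -0.094 and Zfp36l2 -0.021 with total counts alone, Hspa1a -0.020 with the replicate block, and Mcl1 0.015 after thinning.

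Of all records 7 were called, against 26 with total counts alone, 197 with no filter, 12 after thinning, 389 with DESeq2 and 5 to 534 when a library was left out (526 and 534 without a shBCOR library). The replicate block gave 45 called records and 0 called members; same-numbered libraries did not deviate together (correlation -0.0052 across records), and the labels state no pairing. The cause of these changes was not tested. Of the 5 nearest records 3 were shared with a prior count of 0.5. The medians of the upstream factors and the heat shock genes moved when a shBCOR library was left out, from -0.95 to 0.042 and from -0.62 to 0.38. Depth limits Atf3, with 1 count in shBCOR replicate 2.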
